A study of Mus musculus with 15 samples.

Results

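The genes described here are 44 mouse genes of the G2 and M phases of the cell cycle, out of 26301 genes with a row in the count files. They were chosen by name for their known roles: mitotic cyclins and Cdk1, the CDC25 phosphatases, mitotic kinases, the chromosomal passenger complex, the spindle checkpoint, the anaphase-promoting complex (APC/C) and separase, kinetochore proteins, kinesins, spindle and cytokinesis proteins, condensins, and the proliferation genes Mki67 and Foxm1. Earlier results of these data were known when they were chosen. All 44 were found, and all 44 passed the filter on low counts in every comparison.

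RNA-seq was performed on 3T3-L1 cells, a mouse preadipocyte line that differentiates into adipocytes, on day 2 after induction with a cocktail of insulin (1.67 uM), IBMX (115 ug/mL) and dexamethasone (1 uM). The knockdown set held control cells (sh-Empty, a control retrovirus, n = 3) and JMJD1A-KD cells (sh-Jmjd1a, stable expression of a short hairpin RNA against Jmjd1a, n = 3). JMJD1A, encoded by Kdm3a, removes methyl groups from lysine 9 of histone H3 and needs iron for this reaction. In the rescue set, JMJD1A-KD cells had been infected again to express LacZ as a control (n = 3), wild-type JMJD1A [JMJD1A(WT), n = 3] or an iron-coordination-site mutant [JMJD1A(H1122A), n = 3], so all 9 rescue libraries carry the hairpin and none is of cells without it. The 15 libraries are from virus-infected, drug-selected cell lines, and nothing in the labels says whether the replicates of a group are separate cultures, so p-values measure the spread between these libraries, which may be technical.

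Progression through mitosis is driven by Cdk1 bound to cyclin A or B, is held by the spindle checkpoint until every kinetochore is attached, and ends when APC/C with Cdc20 marks cyclin B and securin for destruction. Confluent 3T3-L1 preadipocytes re-enter the cell cycle after hormonal induction and go through a few synchronous divisions, called mitotic clonal expansion, before terminal differentiation. The transcripts of most of these genes are kept low in G0 and G1 cells and peak in G2 and M, so in bulk RNA their level depends both on how many cells are in G2 or M and on the RNA per cell, which cannot be told apart here.

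Total counts ranged from 11437058 to 25523148 per library, the highest being JMJD1A(WT) replicate 3. Levels are TMM-normalized CPM (read counts divided by the effective library size), computed within each set and compared only within it. Kdm3a itself was at 171, 174 and 185 CPM in sh-Empty cells and 129, 128 and 138 CPM in JMJD1A-KD cells (log2 fold change -0.42 ± 0.048 (SE), adjusted p = 2.91e-08). It was at 116 to 122 CPM with LacZ, 1639 to 1768 CPM with JMJD1A(WT) and 2103 to 2288 CPM with JMJD1A(H1122A), where reads from the expression vector and the cell's own gene were not separated. Of the 8 preadipocyte and fibroblast markers checked, all 8 were at 1 CPM or more in every group. The summed level of 6 blood cell markers was at most 5.02 CPM, of 5 endothelial markers at most 1.06 CPM and of 5 epithelial markers at most 2.73 CPM in any library.

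Many promoters of these genes hold short sequence motifs. The matches come from the sequence alone and do not depend on the counts. The part of the motifs in the differences between groups was not tested. The CHR element (cell cycle genes homology region) is known as a binding site of the MuvB complexes DREAM and MMB, which repress and activate late cell cycle genes, and the CCAAT box as the site of NF-Y. RefSeq promoter windows of 300 bases (250 before to 50 after the start site, GRCm38.p6) were found for 36 of the 44 genes, in 39 windows; Ccna2, Cdc25c, Aurkb, Incenp, Kif20a, Tpx2, Foxm1 and Smc4 had none. The CHR element was searched as TTTGAA or TTCGAA and the CCAAT box as CCAAT, both on either strand, with matches allowed to overlap. No other form of either motif was searched, so a window without a match may hold another form. A CHR match was present in 32 of the 39 windows (82.1%), against 19.2% of all 32851 windows of the same length. A CCAAT match was present in 31 windows (79.5%, against 37.4% of all), 2 or more CCAAT matches in 20 windows (51.3%, against 11.7%), and both motifs in 29 windows (74.4%, against 7.52%). A CHR match at 50 bases before the start site or farther downstream was present in 28 windows (71.8%, against 5.31%). A match describes the letters only.

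The promoters of 8 members are given below 5′ to 3′ on the strand of the gene, in lower case with the CHR and CCAAT matches of either strand in capitals. Ccnb2, Cdk1, Cdc20 and Plk1 stand for the cyclins, kinases and APC/C activators, and Kif23, Cenpa and Ube2c were among the members with large differences. Birc5, with neither motif in its window, was among the 3 members not called in the knockdown set. Aurka and Bub3, also not called, hold both motifs, whereas Nuf2, Nusap1, Mad2l1 and Pttg1 hold neither and were called higher. In the knockdown set Pttg1 (log2 fold change 0.67) and Cenpe (0.71), which has no CHR match, rose more than Ube2c (0.60).
Ccnb2, chr9:70421505-70421804, minus strand: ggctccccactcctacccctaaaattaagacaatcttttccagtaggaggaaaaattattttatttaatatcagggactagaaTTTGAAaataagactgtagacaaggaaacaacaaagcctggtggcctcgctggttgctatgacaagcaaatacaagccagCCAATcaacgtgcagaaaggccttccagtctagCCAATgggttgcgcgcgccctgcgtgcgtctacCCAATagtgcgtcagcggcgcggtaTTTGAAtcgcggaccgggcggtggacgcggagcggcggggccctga
Cdk1, chr10:69352863-69353162, minus strand: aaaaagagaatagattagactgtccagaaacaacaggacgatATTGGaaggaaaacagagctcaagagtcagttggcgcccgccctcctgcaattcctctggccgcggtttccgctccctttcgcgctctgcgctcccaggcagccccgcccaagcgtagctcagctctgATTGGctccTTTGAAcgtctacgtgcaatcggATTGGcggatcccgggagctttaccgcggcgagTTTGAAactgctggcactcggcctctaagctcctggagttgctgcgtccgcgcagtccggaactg
Cdc20, chr4:118437294-118437593, minus strand: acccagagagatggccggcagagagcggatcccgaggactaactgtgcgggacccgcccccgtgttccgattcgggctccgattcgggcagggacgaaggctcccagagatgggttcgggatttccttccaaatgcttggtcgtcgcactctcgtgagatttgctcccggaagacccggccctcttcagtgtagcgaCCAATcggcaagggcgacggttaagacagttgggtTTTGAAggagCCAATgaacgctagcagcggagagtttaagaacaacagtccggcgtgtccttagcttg
Plk1, chr7:122159185-122159484, plus strand: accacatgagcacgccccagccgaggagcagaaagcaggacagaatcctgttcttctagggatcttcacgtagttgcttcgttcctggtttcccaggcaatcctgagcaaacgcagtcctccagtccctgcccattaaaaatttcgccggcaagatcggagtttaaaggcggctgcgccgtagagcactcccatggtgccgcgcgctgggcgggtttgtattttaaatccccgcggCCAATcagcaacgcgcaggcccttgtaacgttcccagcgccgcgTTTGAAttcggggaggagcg
Kif23, chr9:61946750-61947049, minus strand: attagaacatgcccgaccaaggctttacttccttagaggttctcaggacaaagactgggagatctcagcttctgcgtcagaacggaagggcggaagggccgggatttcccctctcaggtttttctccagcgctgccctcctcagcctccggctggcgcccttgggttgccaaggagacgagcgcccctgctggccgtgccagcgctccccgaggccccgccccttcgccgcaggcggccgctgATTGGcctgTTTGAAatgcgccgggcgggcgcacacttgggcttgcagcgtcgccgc
Cenpa, chr5:30666636-30666935, plus strand: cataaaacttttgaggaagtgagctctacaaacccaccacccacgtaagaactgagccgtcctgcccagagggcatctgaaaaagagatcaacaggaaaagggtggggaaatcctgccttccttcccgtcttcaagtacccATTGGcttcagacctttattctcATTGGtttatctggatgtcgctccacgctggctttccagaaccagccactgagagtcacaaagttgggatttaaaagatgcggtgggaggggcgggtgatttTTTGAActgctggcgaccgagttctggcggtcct
Ube2c, chr2:164769679-164769978, plus strand: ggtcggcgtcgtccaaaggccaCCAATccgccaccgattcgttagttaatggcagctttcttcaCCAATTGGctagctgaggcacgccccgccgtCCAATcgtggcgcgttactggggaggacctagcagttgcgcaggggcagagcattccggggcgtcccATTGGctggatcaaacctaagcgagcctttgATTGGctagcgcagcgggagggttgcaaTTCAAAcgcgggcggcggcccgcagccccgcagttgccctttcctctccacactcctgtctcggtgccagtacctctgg
Birc5, chr11:117848987-117849286, plus strand: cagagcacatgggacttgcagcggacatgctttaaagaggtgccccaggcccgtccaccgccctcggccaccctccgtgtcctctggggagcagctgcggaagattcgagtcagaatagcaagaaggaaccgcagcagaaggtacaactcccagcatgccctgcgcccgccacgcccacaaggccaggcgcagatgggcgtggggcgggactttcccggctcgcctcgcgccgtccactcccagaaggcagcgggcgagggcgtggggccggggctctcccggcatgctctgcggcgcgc
In Ccnb2, 3 CCAAT boxes start at 87, 54 and 21 bases before the start site and a CHR match starts 4 bases after it, with a second CHR match 167 bases before it. In Cdk1, CCAAT boxes at 208, 80 and 48 bases and CHR matches at 71 and 15 bases precede the start site. Ube2c holds 6 CCAAT matches, 2 of which overlap, and 1 CHR match 29 bases before the start site. Kif23, the member with the largest difference in the knockdown set, has its CCAAT box 7 bases before and its CHR match 2 bases after the start site.

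**Figure D1:**
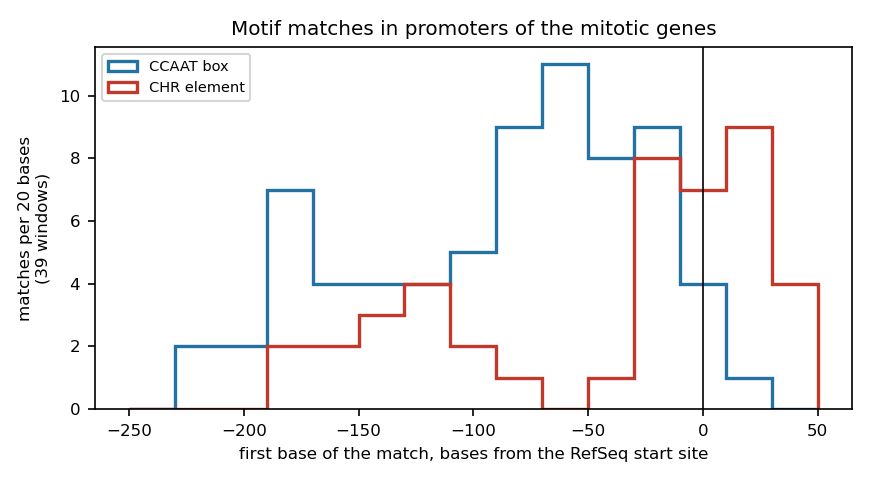
Positions of CHR (red) and CCAAT (blue) matches in the 39 promoter windows of the members; the x axis gives the first base of each match in bases from the RefSeq start site and the y axis the matches per 20 bases. CHR matches gather around the start site and CCAAT boxes mostly upstream of it; 28 windows hold a CHR match from 50 bases before the start site onward.

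In the first comparison, JMJD1A-KD cells against sh-Empty cells, the mitotic genes were higher nearly throughout. Of the 44 members, 41 rose, 0 fell and 3 (Aurka, Birc5 and Bub3) did not pass the test (edgeR's quasi-likelihood test, adjusted p under 0.05). DESeq2 called 38 higher and 0 lower, and 0 were lower at an unadjusted p under 0.05 in either tool. Across all 12272 genes tested, 22.3% were called higher and 23.9% lower. All 44 log2 fold changes were above 0, with a median of 0.46 and a range from 0.046 (Bub3) to 0.99 (Kif23), while the median over all genes tested was -0.0032. In 41 of the 44 members the lowest JMJD1A-KD library was above the highest sh-Empty library, which was so in one direction or the other for 53.0% of all genes. These 41 include Birc5, which was not called, and leave out Incenp, which was called. Summed over the 44 genes and scaled by the raw totals alone, the counts came to 2726, 2827 and 2735 CPM in sh-Empty libraries and 3595, 3594 and 3690 CPM in JMJD1A-KD libraries. The number called was 36 to 42 when any 1 library was left out, the lowest without sh-Empty replicate 1.

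**Figure D2:**
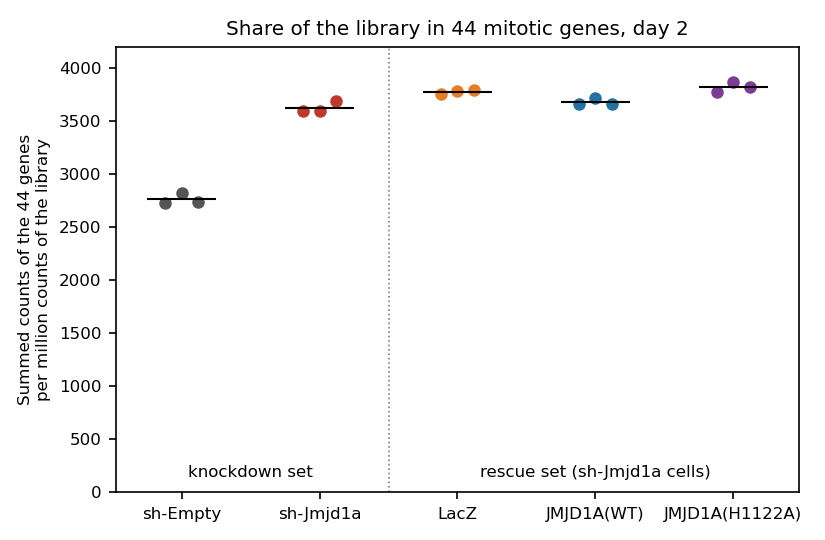
Summed counts of the 44 genes scaled by the raw total of each library, in CPM (y axis), in the 5 groups (x axis), with points for single libraries (n = 3) and black lines for group means. The sh-Empty libraries sit between 2726 and 2827 CPM and the other 12 libraries between 3594 and 3868 CPM.

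The counts of rises by role that follow stand beside 22.3% of all genes called higher in the knockdown set. The 4 members that encode cyclins or Cdk1 all rose. Ccna2, cyclin A2, which acts from S phase into early mitosis, was at 65.2, 60.2 and 56.1 CPM in sh-Empty cells and 69.5, 72.4 and 73.7 CPM in JMJD1A-KD cells. Its groups did not overlap, and its log2 fold change was the smallest of the 4 (log2 fold change 0.25 ± 0.064 (SE), adjusted p = 0.00157). Exons of Ccna2 share 14.6% of their length with Exosc9 on the other strand, which had a log2 fold change of -0.19 (adjusted p = 0.196). Ccnb1, the main cyclin of mitotic Cdk1, was at 40.4, 47.1 and 43.6 CPM in sh-Empty cells and 63.2, 57.2 and 59.8 CPM in JMJD1A-KD cells. All JMJD1A-KD libraries were above all sh-Empty libraries (log2 fold change 0.46 ± 0.07 (SE), adjusted p = 3.84e-06). Ccnb2, the second B-type cyclin, was at 23.3, 20.3 and 22.2 CPM in sh-Empty cells and 36.02, 34.1 and 28.98 CPM in JMJD1A-KD cells, with JMJD1A-KD replicate 3 below the other two but still no overlap (log2 fold change 0.59 ± 0.094 (SE), adjusted p = 7.2e-06). Cdk1, the catalytic subunit, was at 60.3, 70.2 and 60.7 CPM in sh-Empty cells and 82.9, 85.3 and 80.8 CPM in JMJD1A-KD cells. Its JMJD1A-KD libraries lay close together, above the highest sh-Empty library (log2 fold change 0.38 ± 0.063 (SE), adjusted p = 1.07e-05).

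Both CDC25 phosphatases among the members, which remove the inhibitory phosphates from Cdk1, rose, while Cdc25a, which is not a member, did not pass the test (log2 fold change 0.096, adjusted p = 0.315). Cdc25b was at 31.5, 27.6 and 28.2 CPM in sh-Empty cells and 39.6, 45.5 and 41.3 CPM in JMJD1A-KD cells, without overlap (log2 fold change 0.54 ± 0.081 (SE), adjusted p = 2.81e-06). Cdc25c was at 7.93, 7.41 and 9.65 CPM in sh-Empty cells and 12.4, 15.2 and 13.1 CPM in JMJD1A-KD cells, and again the groups were apart (log2 fold change 0.68 ± 0.14 (SE), adjusted p = 0.000197).

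Of the 4 mitotic kinases among the members, 3 rose, with a median log2 fold change of 0.26. Plk1, polo-like kinase 1, was at 37.2, 36.98 and 36.8 CPM in sh-Empty cells and 41.1, 42.9 and 41.1 CPM in JMJD1A-KD cells. The groups were apart but by little (log2 fold change 0.17 ± 0.072 (SE), adjusted p = 0.0478), and the call was lost without sh-Empty replicate 1, 2 or 3 or without JMJD1A-KD replicate 1 or 2 (adjusted p = 0.0807, 0.0793, 0.121, 0.0721 and 0.13). Aurka, the centrosomal Aurora kinase, was at 41.2, 35.4 and 41.9 CPM in sh-Empty cells and 45.3, 46.1 and 39.9 CPM in JMJD1A-KD cells. Its groups overlapped through JMJD1A-KD replicate 3 (log2 fold change 0.14 ± 0.079 (SE), adjusted p = 0.15), and without that library the log2 fold change was 0.21 with an adjusted p of 0.0219. Aurkb, the kinase of the chromosomal passenger complex, was at 24.1, 26.1 and 24.5 CPM in sh-Empty cells and 31.3, 35.8 and 30.7 CPM in JMJD1A-KD cells, without overlap (log2 fold change 0.39 ± 0.087 (SE), adjusted p = 0.000497). Ttk, the checkpoint kinase Mps1, was nearly equal in its control libraries, at 19.6, 19.5 and 19.5 CPM in sh-Empty cells and 26.8, 23.9 and 23.5 CPM in JMJD1A-KD cells, and rose (log2 fold change 0.34 ± 0.094 (SE), adjusted p = 0.00397).

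The other 3 subunits of the chromosomal passenger complex, which corrects wrong attachments of chromosomes, moved least, with a median log2 fold change of 0.16. Birc5, survivin, was at 35.8, 35.7 and 35.7 CPM in sh-Empty cells and 38.99, 36.6 and 39.6 CPM in JMJD1A-KD cells. Every JMJD1A-KD value was above the control values, by little, and the difference did not pass the test (log2 fold change 0.10 ± 0.074 (SE), adjusted p = 0.263). Incenp, the scaffold, was at a mean of 91.8 CPM and 103 CPM (log2 fold change 0.16 ± 0.059 (SE), adjusted p = 0.026). Its groups overlapped, with sh-Empty replicate 2 at 100.5 CPM and JMJD1A-KD replicate 2 at 97.2 CPM. The call was lost without sh-Empty replicate 1 or 3 or JMJD1A-KD replicate 1 (adjusted p = 0.11, 0.183 and 0.131). Cdca8, borealin, was at a mean of 22.2 CPM and 26.2 CPM (log2 fold change 0.25 ± 0.093 (SE), adjusted p = 0.0293), lost without the same 3 libraries (adjusted p = 0.0853, 0.168 and 0.0878).

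The spindle checkpoint members, whose products hold APC/C inactive until chromosomes are attached, rose in 3 of 4 cases by similar amounts. Bub1b, the checkpoint protein BubR1, was at 87.6, 83.3 and 86.9 CPM in sh-Empty cells and 102, 104 and 102 CPM in JMJD1A-KD cells, with little spread within either group (log2 fold change 0.25 ± 0.052 (SE), adjusted p = 0.000212). Bub1 rose from a mean of 37.7 to 45.4 CPM (log2 fold change 0.27 ± 0.071 (SE), adjusted p = 0.00261) and Mad2l1 from 39.6 to 48.8 CPM (log2 fold change 0.30 ± 0.073 (SE), adjusted p = 0.00129). Bub3, the binding partner of Bub1 and BubR1, was at a mean of 96.5 and 99.7 CPM, with overlapping groups (log2 fold change 0.046 ± 0.053 (SE), adjusted p = 0.506).

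The 4 members that act at the metaphase-to-anaphase transition rose, but not by the same amount. Cdc20, the APC/C activator, was at 60.3, 61.97 and 61.4 CPM in sh-Empty cells and 73.2, 68.4 and 64.03 CPM in JMJD1A-KD cells. The groups did not overlap, yet JMJD1A-KD replicate 3 was only just above the controls (log2 fold change 0.16 ± 0.063 (SE), adjusted p = 0.0367), and the call was lost on leaving out sh-Empty replicate 1, 2 or 3 or JMJD1A-KD replicate 1 or 2 (adjusted p = 0.0962, 0.0574, 0.0899, 0.201 and 0.0648). Exons of Cdc20 share 2.84% of their length with Elovl1 on the other strand, which fell (log2 fold change -1.26, adjusted p = 2.16e-16). Ube2c, the ubiquitin-conjugating enzyme of APC/C, was at 50.04, 49.99 and 47.4 CPM in sh-Empty cells and 73.9, 73.1 and 75.6 CPM in JMJD1A-KD cells, with the groups far apart (log2 fold change 0.60 ± 0.061 (SE), adjusted p = 3.82e-09). Espl1, separase, which cuts cohesin, was at 37.97, 33.8 and 33.7 CPM in sh-Empty cells and 54.95, 46.3 and 48.7 CPM in JMJD1A-KD cells, and its lowest JMJD1A-KD library was above the highest control (log2 fold change 0.51 ± 0.078 (SE), adjusted p = 3.82e-06). Pttg1, securin, the inhibitor of separase, was at 10.7, 9.998 and 14.4 CPM in sh-Empty cells and 18.7, 19.6 and 18.6 CPM in JMJD1A-KD cells. Its JMJD1A-KD libraries were close together while sh-Empty replicate 3 stood above the other controls (log2 fold change 0.67 ± 0.12 (SE), adjusted p = 5.88e-05).

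All 5 centromere and kinetochore members rose, with a median log2 fold change of 0.63. Cenpa, the histone H3 variant of centromeres, was at 25.99, 27.8 and 28.03 CPM in sh-Empty cells and 47.5, 42.3 and 42.7 CPM in JMJD1A-KD cells, without overlap (log2 fold change 0.69 ± 0.079 (SE), adjusted p = 3.03e-08). Cenpe, a kinetochore motor, was at 49.8, 56.9 and 51.9 CPM in sh-Empty cells and 85.4, 82.1 and 92.3 CPM in JMJD1A-KD cells, and Cenpf, a large kinetochore protein of G2 and M, at 44.6, 51.5 and 46.8 CPM in sh-Empty cells and 72.7, 69.9 and 78.7 CPM in JMJD1A-KD cells. Both had groups well apart, with a log2 fold change of 0.71 for Cenpe (adjusted p = 3.02e-10) and 0.63 for Cenpf (adjusted p = 8.66e-09). Ndc80, which binds microtubules, was at 17.003, 14.6 and 16.1 CPM in sh-Empty cells and 24.1, 22.5 and 26.2 CPM in JMJD1A-KD cells (log2 fold change 0.61 ± 0.10 (SE), adjusted p = 1.43e-05). Nuf2, its direct partner, was at 19.03, 22.7 and 20.8 CPM in sh-Empty cells and 23.2, 26.1 and 27.7 CPM in JMJD1A-KD cells. Its lowest JMJD1A-KD library was only slightly above the highest control (log2 fold change 0.30 ± 0.097 (SE), adjusted p = 0.0112), and without sh-Empty replicate 1 the adjusted p was 0.062.

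The 5 kinesins among the members rose by 0.51 or more on the log2 scale. Kif11, Eg5, which pushes spindle poles apart, was at 46.8, 47.9 and 53.7 CPM in sh-Empty cells and 70.7, 68.6 and 78.9 CPM in JMJD1A-KD cells, without overlap (log2 fold change 0.55 ± 0.069 (SE), adjusted p = 1.58e-07). Kif23, the motor subunit of centralspindlin, was at 22.03, 19.997 and 20.8 CPM in sh-Empty cells and 43.6, 39.3 and 42.1 CPM in JMJD1A-KD cells. Every JMJD1A-KD library was far above every control, the largest log2 fold change among the 44 members (log2 fold change 0.99 ± 0.083 (SE), adjusted p = 6.82e-11). Kif20a, a cytokinesis kinesin, was at 69.2, 76.6 and 75.7 CPM in sh-Empty cells and 111, 112 and 103 CPM in JMJD1A-KD cells, again far apart (log2 fold change 0.55 ± 0.057 (SE), adjusted p = 3.89e-09). Kif2c, the microtubule depolymerase MCAK, was at 29.1, 30.3 and 26.99 CPM in sh-Empty cells and 40.995, 43.2 and 39.01 CPM in JMJD1A-KD cells, and Kif4, a chromosome-bound kinesin, at 34.01, 31.1 and 32.6 CPM in sh-Empty cells and 45.97, 47.8 and 45.5 CPM in JMJD1A-KD cells. Their differences were alike in size, with a log2 fold change of 0.52 for Kif2c (adjusted p = 3.95e-06) and 0.51 for Kif4 (adjusted p = 1.34e-06).

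The spindle assembly and cytokinesis members rose in 6 of 6 cases. Tpx2, the activator of Aurora A on the spindle, was at 132, 143 and 133 CPM in sh-Empty cells and 182, 198 and 193 CPM in JMJD1A-KD cells, the groups well apart (log2 fold change 0.49 ± 0.048 (SE), adjusted p = 1.36e-09). Prc1, the bundling protein of the central spindle, was at 46.8, 57.6 and 53.5 CPM in sh-Empty cells and 83.2, 77.7 and 79.8 CPM in JMJD1A-KD cells (log2 fold change 0.61 ± 0.067 (SE), adjusted p = 1.7e-08). Anln, anillin of the contractile ring, was at 53.4, 59.1 and 52.8 CPM in sh-Empty cells and 88.5, 81.9 and 87.96 CPM in JMJD1A-KD cells. Both had groups well apart, and Anln had the largest log2 fold change of the 6 (log2 fold change 0.65 ± 0.062 (SE), adjusted p = 1.07e-09). Nusap1, Hmmr and Ect2 had log2 fold changes of 0.31 (adjusted p = 0.00264), 0.33 (adjusted p = 0.00131) and 0.47 (adjusted p = 8.39e-05).

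The members that encode condensin subunits and topoisomerase II alpha, which compact and untangle chromosomes, rose in 5 of 5 cases. Smc4 was at 125, 128 and 132 CPM in sh-Empty cells and 171, 174 and 182 CPM in JMJD1A-KD cells, and Smc2, with which it forms the core of both condensins, at 59.7, 54.5 and 58.1 CPM in sh-Empty cells and 78.2, 79.2 and 79.7 CPM in JMJD1A-KD cells. The pair had nearly the same log2 fold change, 0.45 for Smc4 (adjusted p = 4.45e-09) and 0.46 for Smc2 (adjusted p = 2.6e-07). Ncapd2, of condensin I, was at 91.5, 84.2 and 85.3 CPM in sh-Empty cells and 112, 121 and 126 CPM in JMJD1A-KD cells (log2 fold change 0.46 ± 0.056 (SE), adjusted p = 7.63e-08), and Ncapg, also of condensin I, rose less (log2 fold change 0.22 ± 0.069 (SE), adjusted p = 0.00967). Exons of Ncapg share 13.3% of their length with Lcorl on the other strand, which rose by 0.65 on the log2 scale (adjusted p = 0.00348). Top2a, the most abundant member per length of transcript (72.3 CPM per kb of exon in sh-Empty cells), was at 647, 672 and 648 CPM in sh-Empty cells and 724, 745 and 770.1 CPM in JMJD1A-KD cells. Its groups were apart by a small step (log2 fold change 0.19 ± 0.037 (SE), adjusted p = 0.000137).

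Mki67, the gene of the proliferation antigen Ki-67, was at 138, 158 and 139 CPM in sh-Empty cells and 224, 215 and 236 CPM in JMJD1A-KD cells, with no overlap (log2 fold change 0.63 ± 0.051 (SE), adjusted p = 4.24e-11). Foxm1, a transcription factor that drives many G2 and M genes, was at 39.5, 40.1 and 41.9 CPM in sh-Empty cells and 54.8, 49.7 and 55.2 CPM in JMJD1A-KD cells, and also rose (log2 fold change 0.39 ± 0.07 (SE), adjusted p = 3.35e-05).

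**Figure D3:**
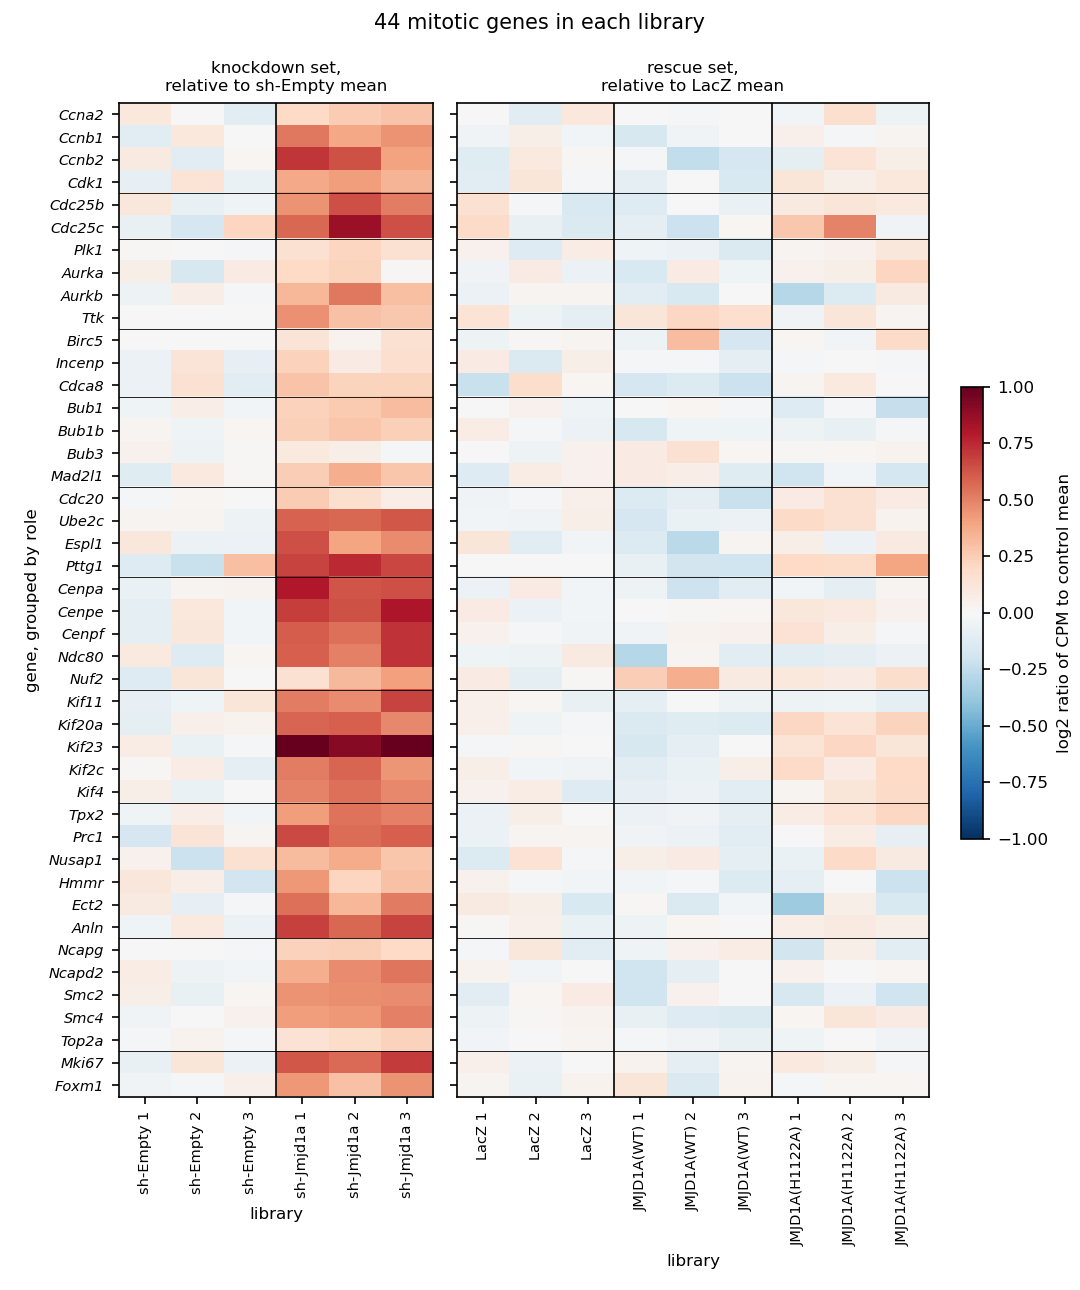
Each row is 1 of the 44 genes and each column 1 library; colour gives the log2 ratio of CPM to the mean of the 3 sh-Empty libraries (left) or the 3 LacZ libraries (right). In the left panel the 3 JMJD1A-KD columns are red for nearly every gene, darkest for Kif23, while the right panel stays pale, with Kif20a, Cdc20, Ube2c and Pttg1 redder with JMJD1A(H1122A) than with JMJD1A(WT).

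The members with a CHR match in a promoter window numbered 29, of which 27 rose, with a median log2 fold change of 0.47 and a range from 0.046 to 0.99. The 7 genes without one (Birc5, Ccnb1, Cenpe, Mad2l1, Nuf2, Nusap1 and Pttg1) had a median of 0.31 and a range from 0.10 to 0.71, and 6 of them rose. Of all 44 members 41 rose, and of all genes tested 22.3% did. The ranges with and without a CHR match overlap, and no test was made of this split.

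Other genes of the same pathways, from lists that do not include the members, were tested in the same comparison, in which 22.3% of all genes rose and 23.9% fell. These lists, like the members, were chosen with earlier results of these data known. Of 36 further spindle and cytokinesis genes, 27 rose and 0 fell in edgeR (DESeq2 also 27 and 0, and 0 lower at an unadjusted p under 0.05), with a median log2 fold change of 0.50. The largest rises were those of Depdc1a (0.91, adjusted p = 4.79e-08), Kif18a, a kinesin that dampens chromosome movements (0.89, adjusted p = 6.64e-07), and Cit, citron kinase (0.80, adjusted p = 6.52e-06). Of 28 kinetochore and centromere genes, 14 rose and 2 fell (median 0.30). Cenpo had the largest rise of them (0.84, adjusted p = 0.000239), and those that fell were Hjurp, the chaperone of Cenpa (-0.31, adjusted p = 1.49e-06), and Zwint (-0.28, adjusted p = 0.000234). Of 19 cohesin and condensin genes, 13 rose and 1 fell (median 0.27). The protectors of cohesin Sgo2a (0.63, adjusted p = 3.5e-07) and Sgo1 (0.52, adjusted p = 9.35e-06) were higher, and Ncapg2, of condensin II, was lower (-0.70, adjusted p = 2.63e-11). Of 25 checkpoint and APC/C genes, 7 rose and 3 fell (median 0.0018), a share of rises near that of all genes. The rises included Fbxo5, the APC/C inhibitor Emi1 (0.52, adjusted p = 0.00039), and the falls Anapc7 (-0.41, adjusted p = 1.46e-05). Of 26 regulators of mitotic entry, 13 rose and 3 fell (median 0.27), led by E2f7, a repressor of E2F targets (1.05, adjusted p = 3.47e-07), Mastl, the Greatwall kinase (0.86, adjusted p = 3.27e-06), and Wee1, the kinase that inhibits Cdk1 (0.81, adjusted p = 2.06e-07).

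Of 45 genes of G1/S control and DNA replication, 29 rose and 2 fell (median log2 fold change 0.29). Prim1, of DNA primase (0.89, adjusted p = 3.38e-09), and the helicase subunits Mcm3 (0.76, adjusted p = 7.8e-13) and Mcm4 (0.76, adjusted p = 1.42e-14) had the largest rises, and Ccnd2, cyclin D2 (-0.38, adjusted p = 5.4e-09), and Rrm2 (-0.14, adjusted p = 0.027) fell. Of 21 cell cycle inhibitors, 20 were tested, of which 7 rose and 6 fell (median 0.081), in both directions somewhat above the shares of all genes (22.3% and 23.9%). Btg2 (1.77, adjusted p = 2.03e-08) and Cdkn1b, p27 (0.77, adjusted p = 2.94e-12), were higher, and Rb1 (-1.02, adjusted p = 1.6e-07) and Gadd45g (-0.95, adjusted p = 6.72e-15) were lower.

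Markers of differentiation also differed in the knockdown set. All 7 adipocyte markers fell in JMJD1A-KD cells (median log2 fold change -1.35), and their summed level was 5051 to 5150 CPM in sh-Empty cells and 2651 to 2796 CPM in JMJD1A-KD cells. Of the 8 preadipocyte and fibroblast markers, 6 rose and 1, Dlk1, fell (median 0.59), with a summed level of 12641 to 12855 CPM and 21000.3 to 22321 CPM. Their part in the difference of the mitotic genes was not tested.

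**Figure D4:**
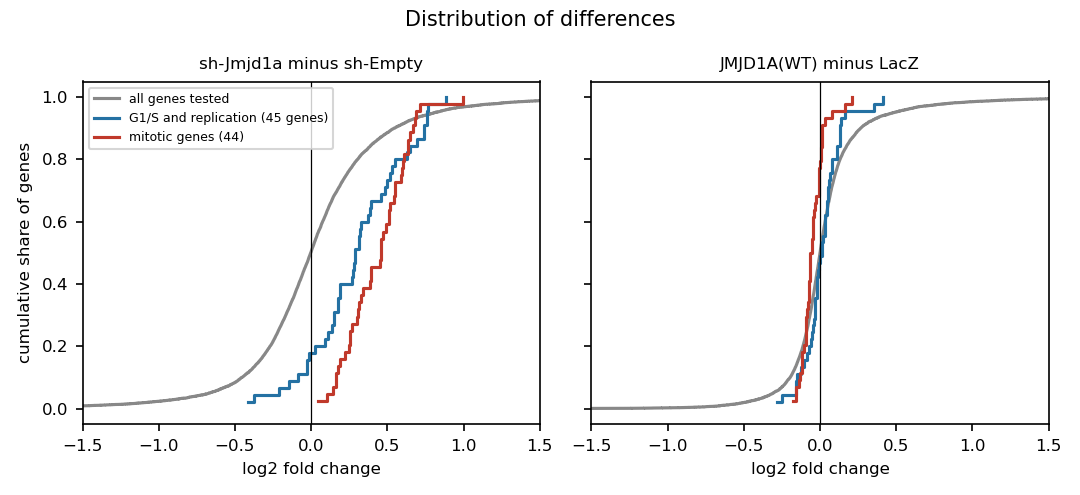
Cumulative share of genes (y axis) by log2 fold change (x axis) for JMJD1A-KD against sh-Empty cells (left) and JMJD1A(WT) against LacZ (right), for the 44 mitotic genes (red), 45 genes of G1/S control and replication (blue) and all genes tested (grey, drawn from -1.5 to 1.5). On the left the red line lies wholly to the right of 0, with a median of 0.46, and on the right it lies close to 0, with a median of -0.059 and 35 of 44 genes below 0.

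In the rescue set, the question was whether JMJD1A(WT), and not JMJD1A(H1122A), changes these genes in JMJD1A-KD cells. For JMJD1A(WT) against LacZ, 0 of the 44 members passed the test in either direction in edgeR, and 0 in DESeq2, while 4.98% of all 12557 genes were called higher and 4.52% lower. At an unadjusted p under 0.05, 3 members were lower (Cdc20, Kif20a and Smc4) and 1 was higher (Nuf2). The log2 fold changes ran from -0.18 (Cdca8) to 0.21 (Nuf2), with a median of -0.059 and 35 of 44 below 0, and their standard errors from 0.034 to 0.13. The median member, as log2(CPM + 0.5) relative to the mean of the 9 libraries, was at -0.0015, 0.021 and -0.0044 in the LacZ libraries and -0.062, -0.025 and -0.033 in the JMJD1A(WT) libraries, which did not overlap. The groups did not overlap for 6 members, against 22.9% of all genes. In the same comparison all 7 adipocyte markers rose (median log2 fold change 0.50), with a summed level of 3362 to 3437 CPM with LacZ and 3811 to 4167 CPM with JMJD1A(WT).

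For JMJD1A(H1122A) against JMJD1A(WT), 10 members rose and 0 fell in edgeR (9 and 0 in DESeq2, and 0 lower at an unadjusted p under 0.05), while 12.1% of all genes were called higher and 11.7% lower. The 10 were Kif20a, Tpx2, Cdc20, Smc4, Pttg1, Ube2c, Kif23, Cdk1, Kif4 and Cdc25c, with log2 fold changes from 0.19 to 0.42. Over the 44 members the median was 0.075, with 32 of 44 above 0, and 16 members had groups that did not overlap, against 37.1% of all genes. For JMJD1A(H1122A) against LacZ, 2 members rose (Kif20a and Tpx2) and 0 fell in edgeR (2 and 0 in DESeq2, with 1, Smc2, lower at an unadjusted p under 0.05 in edgeR), against 4.78% of all genes called higher and 4.46% lower, with a median of 0.044. The 3 rescue comparisons share libraries. All 7 adipocyte markers fell with JMJD1A(H1122A) against JMJD1A(WT) (median -1.66) and against LacZ (median -1.06), and their part in the differences of the mitotic genes was not tested.

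**Figure D5:**
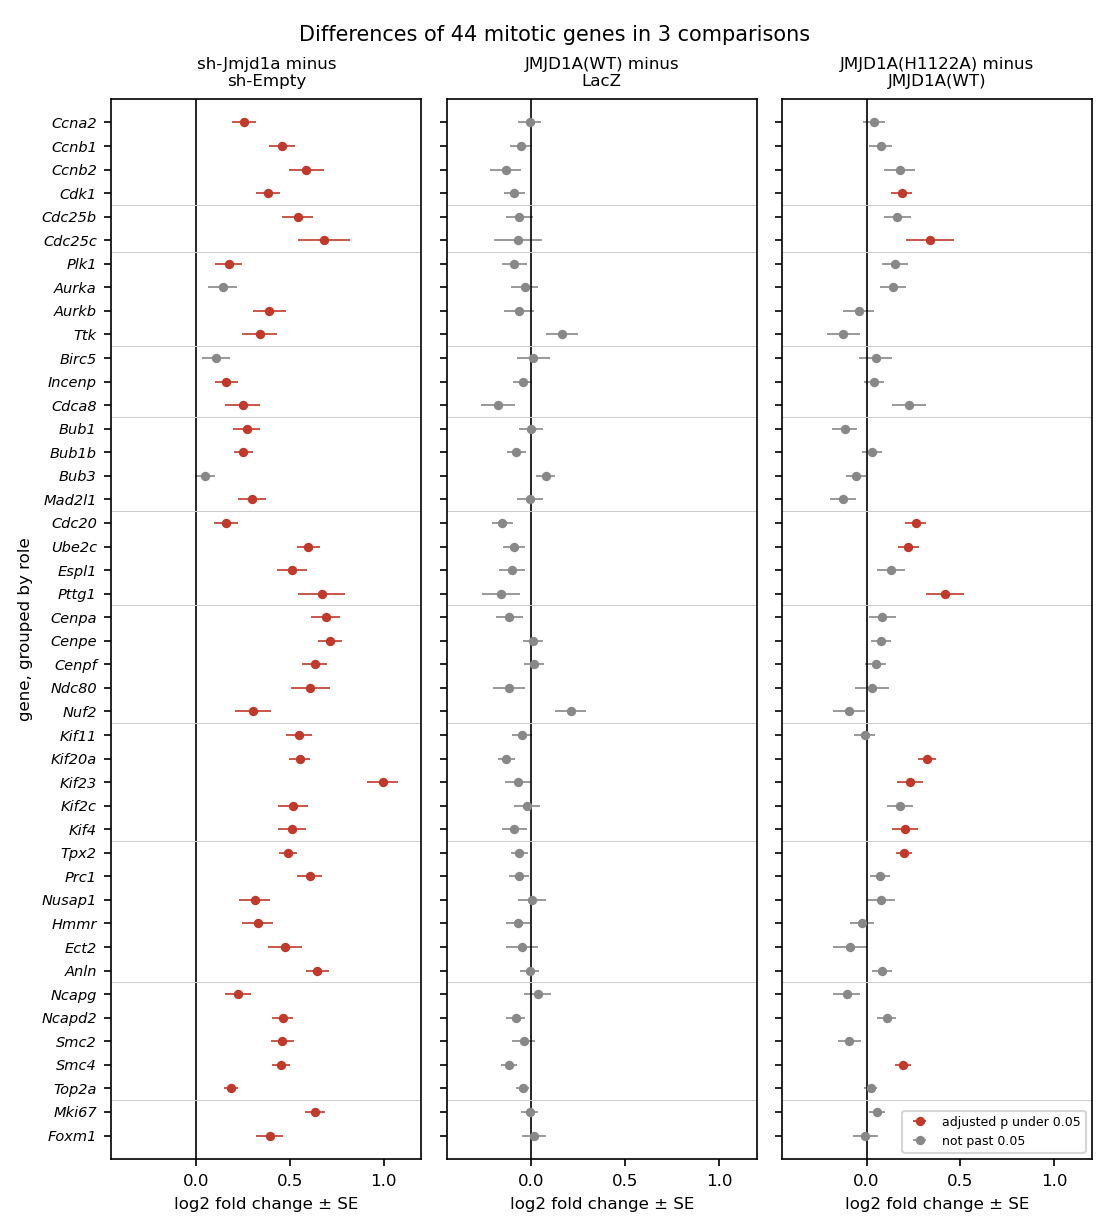
Log2 fold change ± SE (x axis) of the 44 genes (y axis, grouped by role) in 3 comparisons, with genes called at an adjusted p under 0.05 in red and the others in grey. On the left 41 genes are red and all lie to the right of 0, in the middle none is red, and on the right 10 are red, all above 0.

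Kif20a had the smallest adjusted p of the members in both comparisons of the mutant. It was at 121, 114 and 116 CPM with LacZ, 106, 108 and 107 CPM with JMJD1A(WT) and 136, 129 and 137 CPM with JMJD1A(H1122A). The mutant libraries were all above the LacZ libraries, and the JMJD1A(WT) libraries all below them. The difference was 0.32 ± 0.048 (SE, log2, adjusted p = 9.44e-07) from JMJD1A(WT) to the mutant and 0.19 ± 0.048 (adjusted p = 0.0074) from LacZ to the mutant, whereas the adjusted p between LacZ and JMJD1A(WT) was 0.0769. Exons of Kif20a (chr18:34784278-34792919 in mm9) share 32.3% of their length with Cdc23 on the other strand, and Cdc23 had a log2 fold change of 0.11 (adjusted p = 0.222) in the knockdown set and 0.10 (adjusted p = 0.265) between the mutant and JMJD1A(WT).

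Among the members of the metaphase-to-anaphase transition, 3 of 4 rose from JMJD1A(WT) to the mutant, against 12.1% of all genes. Cdc20 was at 74.1, 74.9 and 78.4 CPM with LacZ, 69.1, 71.4 and 65.01 CPM with JMJD1A(WT) and 80.1, 84.1 and 80.5 CPM with JMJD1A(H1122A). The mutant libraries were the highest and the JMJD1A(WT) libraries the lowest (log2 fold change 0.26 ± 0.057 (SE), adjusted p = 0.000405), and JMJD1A(WT) differed from LacZ by -0.16 on the log2 scale with an adjusted p of 0.0765, which became 0.0446 without JMJD1A(WT) replicate 2. Pttg1 was at 17.9, 17.9 and 17.96 CPM with LacZ, 16.97, 15.8 and 15.6 CPM with JMJD1A(WT) and 20.5, 20.3 and 23.6 CPM with JMJD1A(H1122A), again without overlap (log2 fold change 0.42 ± 0.10 (SE), adjusted p = 0.00146). Ube2c was at 71.9, 71.5 and 76.4 CPM with LacZ, 65.4, 69.96 and 70.4 CPM with JMJD1A(WT) and 83.7, 81.6 and 75.1 CPM with JMJD1A(H1122A). Its lowest mutant library lay within the range of LacZ but above all JMJD1A(WT) libraries (log2 fold change 0.22 ± 0.058 (SE), adjusted p = 0.00316). Exons of Ube2c share 22.8% of their length with Tnnc2 on the other strand, which had a mean of only 13.1 counts per library. Espl1 was at 56.4, 48.2 and 50.9 CPM with LacZ, 47.1, 42.99 and 52.8 CPM with JMJD1A(WT) and 54.02, 49.9 and 55.3 CPM with JMJD1A(H1122A), with overlap between all groups (log2 fold change 0.13 ± 0.073 (SE), adjusted p = 0.207).

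Of the 6 members that encode cyclins, CDC25 phosphatases or Cdk1, only Cdk1 and Cdc25c passed the test between the mutant and JMJD1A(WT). Cdk1 was at 79.97, 93.5 and 85.1 CPM with LacZ, 80.8, 85.8 and 77.5 CPM with JMJD1A(WT) and 93.95, 89.8 and 92.8 CPM with JMJD1A(H1122A), with all mutant libraries above all JMJD1A(WT) libraries and within the range of LacZ except 1 (log2 fold change 0.19 ± 0.057 (SE), adjusted p = 0.0126). The call was lost without mutant replicate 1 or JMJD1A(WT) replicate 3 (adjusted p = 0.0604 and 0.115). Cdc25c was at 14.5, 12.1 and 11.5 CPM with LacZ, 11.98, 10.9 and 12.9 CPM with JMJD1A(WT) and 15.3, 17.9 and 12.4 CPM with JMJD1A(H1122A). Mutant replicate 2 stood above the rest, the groups overlapped (log2 fold change 0.34 ± 0.13 (SE), adjusted p = 0.0457), and leaving out mutant replicate 1 or 2 or JMJD1A(WT) replicate 1 or 2 gave an adjusted p of 0.102, 0.38, 0.0893 and 0.122. Ccna2 was at 75.6, 70.4 and 81.8 CPM with LacZ, 75.5, 74.7 and 75.9 CPM with JMJD1A(WT) and 74.3, 84.8 and 73.2 CPM with JMJD1A(H1122A), and Ccnb1 at 63.9, 67.97 and 64.1 CPM with LacZ, 58.6, 63.6 and 65.5 CPM with JMJD1A(WT) and 67.6, 64.6 and 66.7 CPM with JMJD1A(H1122A). Neither separated any group from the others. Ccnb2 was at 32.4, 37.8 and 35.6 CPM with LacZ, 35.05, 29.8 and 31.5 CPM with JMJD1A(WT) and 32.9, 38.9 and 36.8 CPM with JMJD1A(H1122A) (log2 fold change 0.18 ± 0.082 (SE), adjusted p = 0.121), and Cdc25b at 49.05, 43.3 and 39.7 CPM with LacZ, 40.3, 44.2 and 42.1 CPM with JMJD1A(WT) and 46.9, 47.8 and 47.04 CPM with JMJD1A(H1122A) (log2 fold change 0.16 ± 0.073 (SE), adjusted p = 0.0992). In Cdc25b the mutant libraries were above the JMJD1A(WT) libraries, without passing the test.

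None of the 4 mitotic kinases among the members passed the test in the rescue set. Plk1 was at 49.1, 43.7 and 50.1 CPM with LacZ, 46.1, 45.8 and 43.2 CPM with JMJD1A(WT) and 48.5, 49.2 and 51.5 CPM with JMJD1A(H1122A), with the mutant above JMJD1A(WT) in each library but an adjusted p of 0.112. Aurka was at 43.8, 47.5 and 43.1 CPM with LacZ, 40.4, 47.4 and 43.5 CPM with JMJD1A(WT) and 46.3, 46.7 and 51.9 CPM with JMJD1A(H1122A), and Aurkb at 33.6, 35.8 and 35.8 CPM with LacZ, 32.5, 31.6 and 35.2 CPM with JMJD1A(WT) and 28.7, 31.9 and 37.3 CPM with JMJD1A(H1122A). In both the groups overlapped, and for Aurkb the mutant libraries covered the widest range. Ttk was at 28.6, 24.99 and 24.3 CPM with LacZ, 28.2, 30.02 and 29.1 CPM with JMJD1A(WT) and 25.4, 28.2 and 26.5 CPM with JMJD1A(H1122A). Ttk is 1 of 9 members with a log2 fold change above 0 from LacZ to JMJD1A(WT) (log2 fold change 0.16 ± 0.084 (SE), adjusted p = 0.276). Of the passenger complex, Birc5 was at 38.2, 39.9 and 40.3 CPM with LacZ, 38.1, 48.8 and 35.1 CPM with JMJD1A(WT) and 40.01, 38.6 and 44.98 CPM with JMJD1A(H1122A), where JMJD1A(WT) replicate 2 stood well above the other 2. Incenp and Cdca8 had log2 fold changes of 0.039 (adjusted p = 0.654) and 0.23 (adjusted p = 0.0634) from JMJD1A(WT) to the mutant. Of the checkpoint, Bub1b was at 113, 107 and 103 CPM with LacZ, 96.3, 105 and 105 CPM with JMJD1A(WT) and 104, 102 and 106 CPM with JMJD1A(H1122A), with overlapping groups. Bub1, Bub3 and Mad2l1 had log2 fold changes of -0.12, -0.056 and -0.13 (adjusted p = 0.222, 0.49 and 0.22), all below 0.

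The kinetochore members, with the largest median of the role groups in the knockdown set, did not pass the test in the rescue set. Cenpa was at 40.5, 44.7 and 41.4 CPM with LacZ, 40.7, 36.6 and 39.2 CPM with JMJD1A(WT) and 41.3, 39.5 and 43.01 CPM with JMJD1A(H1122A), and Cenpe at 91.8, 83.3 and 85.4 CPM with LacZ, 86.5, 87.6 and 87.7 CPM with JMJD1A(WT) and 93.8, 93.1 and 89.5 CPM with JMJD1A(H1122A). For Cenpe the lowest mutant library was above the highest JMJD1A(WT) library, but by little (log2 fold change 0.078 ± 0.053 (SE), adjusted p = 0.318). Cenpf was at 87.3, 83.6 and 82.7 CPM with LacZ, 82.4, 86.8 and 86.9 CPM with JMJD1A(WT) and 93.6, 88.2 and 83.3 CPM with JMJD1A(H1122A), and Ndc80 at 26.3, 26.1 and 28.8 CPM with LacZ, 22.2, 27.6 and 25.1 CPM with JMJD1A(WT) and 25.1, 25.3 and 25.96 CPM with JMJD1A(H1122A). Both had overlapping groups between JMJD1A(WT) and the mutant. Nuf2 was at 28.9, 25.5 and 27.4 CPM with LacZ, 32.3, 35.02 and 28.96 CPM with JMJD1A(WT) and 29.3, 28.8 and 30.8 CPM with JMJD1A(H1122A). All JMJD1A(WT) libraries were above all LacZ libraries (log2 fold change 0.21 ± 0.084 (SE), adjusted p = 0.12), and without JMJD1A(WT) replicate 3, the deepest library, the difference was 0.30 with an adjusted p of 0.0389.

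Of the 5 kinesins among the members, Kif20a, Kif23 and Kif4 rose from JMJD1A(WT) to the mutant, against 12.1% of all genes. Kif23 was at 41.4, 42.1 and 41.9 CPM with LacZ, 37.5, 39.2 and 41.7 CPM with JMJD1A(WT) and 45.96, 48.3 and 45.4 CPM with JMJD1A(H1122A). The mutant libraries were above all others (log2 fold change 0.23 ± 0.069 (SE), adjusted p = 0.0116), and without mutant replicate 2 or JMJD1A(WT) replicate 1 the adjusted p was 0.0726 and 0.0591. Kif4 was at 50.2, 51.3 and 44.5 CPM with LacZ, 46.1, 46.7 and 44.9 CPM with JMJD1A(WT) and 49.6, 52.9 and 55.7 CPM with JMJD1A(H1122A) (log2 fold change 0.20 ± 0.068 (SE), adjusted p = 0.0243), a call lost without mutant replicate 2 or 3 or JMJD1A(WT) replicate 3 (adjusted p = 0.0693, 0.13 and 0.102). Exons of Kif4 share 15.1% of their length with Pdzd11 on the other strand, which had a log2 fold change of 0.19 (adjusted p = 0.0524) in the same comparison. Kif2c was at 45.9, 43.1 and 42.995 CPM with LacZ, 40.9, 41.98 and 45.8 CPM with JMJD1A(WT) and 50.2, 46.5 and 50.6 CPM with JMJD1A(H1122A), just short of the threshold (log2 fold change 0.18 ± 0.069 (SE), adjusted p = 0.0524), which it passed without LacZ replicate 1, mutant replicate 2 or JMJD1A(WT) replicate 3 (adjusted p = 0.0451, 0.041 and 0.0253). Kif11 was at 82.2, 80.6 and 75.6 CPM with LacZ, 74.2, 79.8 and 76.6 CPM with JMJD1A(WT) and 76.9, 77.3 and 74.5 CPM with JMJD1A(H1122A), with all groups overlapping.

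Of the 6 spindle assembly and cytokinesis members, Tpx2 rose from JMJD1A(WT) to the mutant. It was at 192, 209 and 199.8 CPM with LacZ, 192, 195 and 189 CPM with JMJD1A(WT) and 211, 220.02 and 231 CPM with JMJD1A(H1122A), and the mutant libraries were the 3 highest (log2 fold change 0.20 ± 0.043 (SE), adjusted p = 0.000393). Against LacZ the mutant was also higher (adjusted p = 0.0361), a call lost without LacZ replicate 1 or 3, mutant replicate 2 or 3 or JMJD1A(WT) replicate 1 (adjusted p = 0.161, 0.112, 0.0832, 0.209 and 0.0531). Prc1 was at 86.04, 91.3 and 90.9 CPM with LacZ, 87.2, 86.1 and 83.3 CPM with JMJD1A(WT) and 89.9, 94.3 and 84.4 CPM with JMJD1A(H1122A), and Anln at 91.8, 94.6 and 86.8 CPM with LacZ, 88.1, 92.1 and 91.3 CPM with JMJD1A(WT) and 95.5, 96.8 and 95.02 CPM with JMJD1A(H1122A). Neither passed the test, although for Anln the mutant libraries were the 3 highest of the set. Nusap1, Hmmr and Ect2 had log2 fold changes of 0.075, -0.024 and -0.089 from JMJD1A(WT) to the mutant (adjusted p = 0.526, 0.841 and 0.525).

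The 2 core condensin subunits parted in the rescue set. Smc4 was at 181, 189 and 193 CPM with LacZ, 178, 172 and 170.1 CPM with JMJD1A(WT) and 191, 204 and 199 CPM with JMJD1A(H1122A), with JMJD1A(WT) below LacZ in all libraries and the mutant above JMJD1A(WT) (log2 fold change 0.19 ± 0.043 (SE), adjusted p = 0.000642), and the adjusted p between LacZ and JMJD1A(WT) was 0.0812, or 0.0401 without LacZ replicate 1. Without that library Cdca8 was also called lower (log2 fold change -0.28, adjusted p = 0.0442). Smc2 was at 83.04, 90.6 and 94.4 CPM with LacZ, 77.7, 92.1 and 89.8 CPM with JMJD1A(WT) and 80.2, 85.95 and 77.6 CPM with JMJD1A(H1122A), with overlapping groups (log2 fold change -0.093 ± 0.061 (SE), adjusted p = 0.296). Ncapd2 was at 132, 127 and 129 CPM with LacZ, 113, 121 and 129.7 CPM with JMJD1A(WT) and 133, 129.7 and 131 CPM with JMJD1A(H1122A), and Ncapg had log2 fold change -0.11 ± 0.072 (SE), adjusted p = 0.321. Top2a was at 733, 747 and 763 CPM with LacZ, 737, 728 and 709.9 CPM with JMJD1A(WT) and 726, 749.9 and 730.1 CPM with JMJD1A(H1122A), with all groups overlapping. Mki67 was at 235, 219 and 228 CPM with LacZ, 233, 212 and 232 CPM with JMJD1A(WT) and 244, 237 and 225 CPM with JMJD1A(H1122A), and Foxm1 at 55.2, 51.6 and 55.4 CPM with LacZ, 58.9, 49.01 and 55.4 CPM with JMJD1A(WT) and 53.7, 54.7 and 54.8 CPM with JMJD1A(H1122A). For Top2a, Mki67 and Foxm1 no comparison of the rescue set passed the test (smallest adjusted p = 0.389).

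From LacZ to JMJD1A(WT), 4.98% of all genes rose and 4.52% fell. Of the 28 kinetochore, 25 checkpoint and APC/C and 26 mitotic entry genes 0 were called in edgeR or DESeq2, with 1, 4 and 3 at an unadjusted p under 0.05 in edgeR. Of 36 spindle genes 1 fell in edgeR (Ckap2) and 0 in DESeq2. Of 19 cohesin and condensin genes 1 rose (Ncapg2) and 1 fell (Pds5b) in edgeR. Of 45 G1/S and replication genes, Ccnd2 rose (0.41, adjusted p = 3.68e-12) and Pcna fell (-0.16, adjusted p = 0.0132). Of the 20 cell cycle inhibitors tested, 3 rose and 2 fell, a larger share than of all genes. Btg2 (0.41, adjusted p = 0.00423), Cdkn2c, p18 (0.33, adjusted p = 6.89e-06), and Cdkn1a, p21 (0.30, adjusted p = 1.08e-06), were higher, and Cdkn2b, p15 (-0.31, adjusted p = 0.000606), and Btg1 (-0.17, adjusted p = 0.000436) were lower.

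From JMJD1A(WT) to the mutant, 12.1% of all genes rose and 11.7% fell. Of the 36 further spindle and cytokinesis genes, 6 rose and 2 fell in edgeR (3 and 2 in DESeq2), with a median log2 fold change of 0.054. The rises included Troap (0.31, adjusted p = 0.00647), the kinesin Kif18b (0.26, adjusted p = 0.0312) and Spag5, astrin (0.25, adjusted p = 0.00673), and the falls were Haus6, of augmin (-0.33, adjusted p = 0.00732), and the kinesin Kif20b (-0.25, adjusted p = 0.00358). Of the 28 kinetochore and centromere genes 2 rose and 1 fell in edgeR (1 and 1 in DESeq2). Of the 25 checkpoint and APC/C genes 1 rose and 1 fell. Of the 19 cohesin and condensin genes 2 rose and 3 fell, and of the 26 regulators of mitotic entry 1 (Lin54) fell. Ncapg2, which was lower in JMJD1A-KD cells, fell here too (-0.51, adjusted p = 2.04e-08). Of the 45 G1/S and replication genes, 8 were lower in the mutant and 4 higher in edgeR (6 and 4 in DESeq2). Ccnd2 (-0.79, adjusted p = 7.69e-22) and Pcna (0.52, adjusted p = 2.74e-13) were at the ends. Of the 20 cell cycle inhibitors tested, 10 were higher in the mutant, such as Cdkn2b (0.59, adjusted p = 8.65e-10), and 3 were lower, such as Cdkn1a (-0.33, adjusted p = 5.6e-08).

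Across the 44 members, the knockdown difference and the JMJD1A(WT) difference, which share no libraries, had a Pearson correlation of -0.27 and a Spearman correlation of -0.26, as a description over genes that are not independent. To place the rescue set beside the control cells, JMJD1A(WT) was set against sh-Empty in a fit of all 15 libraries, a comparison added after the data were seen. Here 40 members were higher and 0 lower in edgeR and in DESeq2 (0 lower at an unadjusted p under 0.05), against 22.8% of all 12758 genes called higher and 22.8% lower, with a median log2 fold change of 0.51. Kif23 (log2 difference 0.95 ± 0.079, SE), Cenpf (0.87 ± 0.062) and Cenpe (0.75 ± 0.059) had the largest differences, and Aurka, Bub3, Birc5 and Cdca8 were not called. The sh-Jmjd1a hairpin, infection with a second virus, the rescue set itself and JMJD1A(WT) cannot be told apart in this comparison.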

How the data were processed

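Reads were trimmed (fastp), aligned to mm9 (HISAT2) and assigned to genes (featureCounts) by the authors, who deposited raw counts for each Entrez Gene number. The strand setting of the counting was not given in the sources used here, so reads of overlapping genes on opposite strands may be shared. The 44 members and the other lists were chosen with earlier results of these data known. Symbols and promoter windows came from RefSeq on GRCm38.p6, and gene positions and exon lengths from GENCODE M1 on mm9.

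Both sets, with 6 knockdown and 9 rescue libraries, were analysed separately over all genes with edgeR 4.0.16 in R 4.3.3 (TMM, filterByExpr with a minimum count of 10, robust quasi-likelihood F test without the legacy option, Benjamini-Hochberg adjustment at 0.05, limma 3.58.1). Standard errors were the log2 fold change divided by the square root of F. Library totals ranged from 11437058 to 25523148. Groups followed the sample titles. All 44 members could be named. Values of every library were given for 15 members set by name, for members called with a log2 fold change of 0.5 or more in size, and for up to 4 further members per comparison with the smallest adjusted p. Of the other lists, up to 3 called genes per direction and comparison, those with the largest changes, were named. Alternatives were other size factors, DESeq2 1.42.0, other filters, all 15 libraries or only 2 groups in one fit, the legacy method, a threshold of 0.01, thinned libraries, a block for the replicate number and the removal of single libraries.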

Additional observations from a re-analysis of the deposited data

How the results depend on the processing

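No median over the members changed sign under any alternative that was run, and no single difference that was followed did so. Those followed were all members in the knockdown set. In the rescue set they were the called members and the uncalled ones with the smallest adjusted p. The signs of other single differences were not checked. The median difference of the members in the knockdown set was 0.49 with upper-quartile size factors and 0.44 to 0.46 when 1 library was left out. With upper-quartile size factors the median over all genes tested in that set was 0.032, against -0.0032 in the main fit. For JMJD1A(WT) against LacZ, 1 member was called higher with libraries thinned to the smallest total (Nuf2), and 0 to 2 lower and 0 to 1 higher when 1 library was left out. For the mutant against JMJD1A(WT), 6 members were called higher at a threshold of 0.01, and 8 to 12 when 1 library was left out. For the mutant against LacZ, 1 was called higher at a threshold of 0.01 and 1 with thinned libraries, 1 to 2 when 1 library was left out, and the median then ran from 0.036 to 0.061. For JMJD1A(WT) against sh-Empty the median was 0.49 to 0.51 when 1 library was left out. The cause of these shifts was not tested. Calls near the threshold moved most. Plk1 and Cdc20 in the knockdown set lost their call under 10 and 8 of 16 alternatives. Cdc25c lost its call from JMJD1A(WT) to the mutant under 8 of 20. Tpx2 lost its call from LacZ to the mutant under 7 of 20, but from JMJD1A(WT) to the mutant under 0 of 20. Deviations from the group means had correlations from -0.054 to 0.060 between libraries sharing a replicate number. Between libraries of different groups and different numbers they ran from -0.071 to 0.075. With few libraries per group, these values cannot tell whether the numbers pair the samples. With the replicate number as a block, 39, 0, 10 and 2 members were called higher in the 4 comparisons. Genes with few counts, such as Cdc25c, limit the precision.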
